A study of Homo sapiens with 2 samples.

Results

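The genes described here move iron into the cell, store it, release it and sense it, and they were taken as a named list of 10 genes matched by symbol to the Ensembl identifiers of the count files. All 10 were found among the 58302 gene rows, and all 10 reached 1 CPM (a count scaled to library size) in both libraries, of 13231 genes that reached it in at least 1. RNA sequencing was run on HK-2, an immortalised human line from the proximal tubule, the part of the nephron that reabsorbs most filtered solutes. Cells of passages 7-11 in medium with 10% serum received, for 24 h, 1 of 2 adenoviruses. The first carried green fluorescent protein (library labelled Ad-GFP) and the other the coding sequence of Bmal1, a transcription factor of the circadian clock (library labelled Ad-Bmal1). Both groups therefore share the viral vector, and neither was labelled as given cisplatin, the drug named in the series title. The labels expand the line's name differently in the 2 samples, as human kidney 2 and human kidney 3. With 1 library per group no test between conditions could be made. Each ratio below compares these libraries only.

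Iron bound to transferrin enters cells through the transferrin receptor TFRC, is reduced in the endosome by the STEAP3 ferrireductase and crosses the endosomal membrane through SLC11A2, also called DMT1. Iron not used at once is held in a shell of ferritin heavy (FTH1) and light (FTL) chains, and NCOA4 carries ferritin to the lysosome when iron is needed. Ferroportin (SLC40A1) is the cell's iron exporter, and HMOX1 frees iron from haem. The RNA-binding proteins IRP1 (made from ACO1, and a cytosolic aconitase when it holds an iron-sulfur cluster) and IRP2 (made from IREB2) bind a hairpin called the iron-responsive element when iron is scarce. Bound near the start of a transcript they block its translation, and bound in the 3′ untranslated region of TFRC they protect the transcript from decay.

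Matches to the letters of this hairpin are shown because the iron-sensing proteins bind it when iron is scarce. In GENCODE v29 transcripts (GRCh38) the pattern searched on the transcript strand was a bulged C, 5 bases, the loop CAGTGN and 5 bases that pair with the first 5, with G-U pairs allowed. It was found in 4 of the 10 genes: once each in the 5′ untranslated regions of FTH1, FTL and SLC40A1, and 4 times in the 3′ untranslated region of TFRC. Of 18798 protein-coding genes with a 5′ untranslated region long enough to hold the pattern, 0.192% had a match there. Of 19092 with such a 3′ region, 0.691% had a match there. SLC11A2 held none under this strict pattern, over 18 coding transcripts. Each sequence below is 30 bases of the transcript strand, and the capitals mark the bulged C and the 6-base loop.
FTL, chr19:48965335-48965364, plus strand: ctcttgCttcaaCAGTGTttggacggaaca
SLC40A1, chr2:189580660-189580689, minus strand: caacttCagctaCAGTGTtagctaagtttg
TFRC hairpin a, chr3:196050978-196051007, minus strand: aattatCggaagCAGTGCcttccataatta
TFRC hairpin b, chr3:196050574-196050603, minus strand: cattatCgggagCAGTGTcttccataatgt
TFRC hairpin c, chr3:196050509-196050538, minus strand: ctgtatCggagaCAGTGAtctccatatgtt
TFRC hairpin d, chr3:196050462-196050491, minus strand: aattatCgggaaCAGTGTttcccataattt
FTL, SLC40A1 and TFRC hairpins b and d share the loop CAGTGT, and TFRC hairpins a and c differ from it in the last base. A match is a description of the letters and not a measurement of binding.

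The E-box CACGTG, the site that BMAL1 and CLOCK bind, was also searched. Promoter windows of 300 bases (250 before to 50 after the start, RefSeq, GRCh38.p14) were on hand for 8 members, with 13 windows in all, and not for FTH1 or HMOX1. The 6 letters, which read the same on both strands, were in none of the 13 windows and in 7.3% of all 35116 windows. That says only that these letters were not in these windows.

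The libraries held 20032652 (Ad-GFP) and 20051735 (Ad-Bmal1) counts, and 1 CPM was worth 20.3 and 19.8 counts. BMAL1 itself (ENSG00000133794), the target of the vector, had 204 counts under the Ad-GFP label and 133 under the Ad-Bmal1 label, a ratio of 0.667 (0.532 to 0.834). The targeted gene went against the label, so every direction below is that of the library labelled Ad-Bmal1 and no more. Of 12 genes listed as proximal tubule markers 5 were measured, namely KRT8, PAX8, KRT18, CDH6 and GGT1, not all of them confined to that segment. The endocytic receptor LRP2 and the transporter SLC22A6 were at 0 in both libraries. CUBN (8 and 2 counts), SLC34A1 (1 and 5), AQP1 (4 and 4), ANPEP (19 and 7) and SLC5A2 (19 and 14) had counts but did not reach 1 CPM in either library. None of 6 red cell lineage markers and none of 5 distal nephron markers was measured. Some markers listed for other cell types were. These were COL1A1 (1285 and 1681 counts) and PDGFRB (16 and 20) of 4 fibroblast markers. CSF1R (433 and 407) of 5 macrophage and blood markers and PODXL (52 and 38) of 3 podocyte markers were also measured. Among hepatocyte markers ALB had 9 and 165 counts and HAMP, which encodes the iron hormone hepcidin, was at 0 in both, where a count of 0 allows up to 0.148 and 0.151 CPM.

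The iron genes differed little between the libraries. TFRC was higher in the library labelled Ad-Bmal1, and FTH1, FTL, NCOA4, SLC11A2, ACO1 and SLC40A1 were lower, each with a 95% counting interval that excluded 1. The intervals of STEAP3, HMOX1 and IREB2 included 1. No member differed by 2-fold with an interval that excluded 1 (0 of 10), a size that 2.86% of all measured genes reached. At 1.5-fold 1 member passed, SLC40A1, against 9.30% of measured genes. Intervals above 1 were found for 1 of 10 members and for 23.8% of measured genes, and intervals below 1 for 6 of 10 members and 21.6% of measured genes. Abundant genes have narrow intervals, and of the 5658 genes with 1000 or more counts over both libraries 37.2% had intervals above 1 and 27.6% below, against 1 and 5 of the 8 members that abundant. The median log2 ratio was -0.13 over the 10 members and 0.00 over all measured genes. Intervals are exact binomial ones for counting error, and how much cultures vary is not in them.

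**Figure D1:**
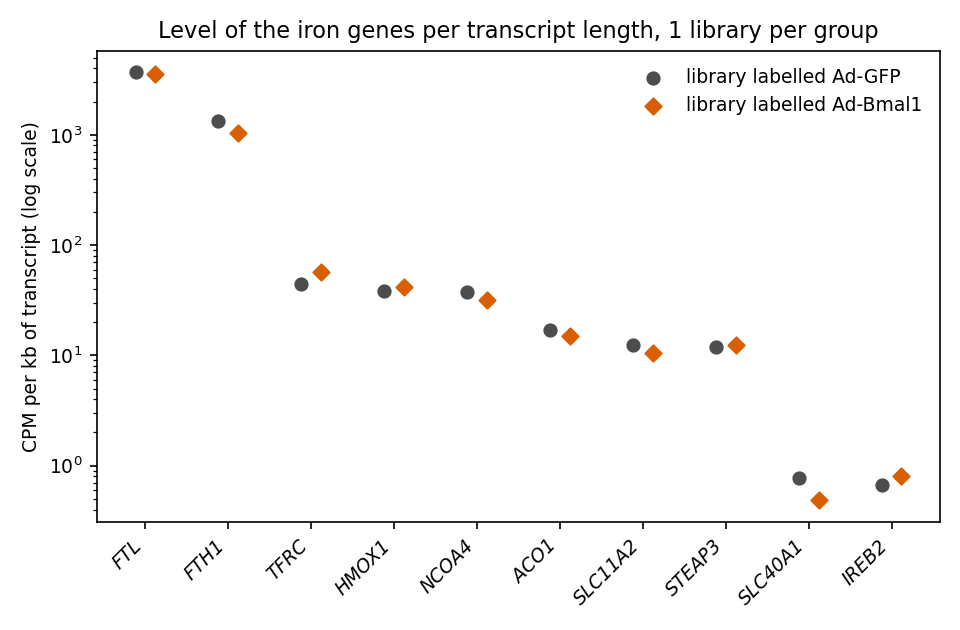
Level of each of the 10 iron genes in CPM per kb of its longest coding transcript (vertical log axis), with a grey circle for the library labelled Ad-GFP and an orange diamond for the library labelled Ad-Bmal1. FTL at 3696 and 3524 and FTH1 at 1337 and 1046 stand above all others, and SLC40A1 and IREB2 lie under 1 in both libraries.

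Per transcript length the order of the levels was the same at the top in both libraries. FTL stood at 3696 CPM per kb in Ad-GFP and 3524 in Ad-Bmal1, and FTH1 at 1337 and 1046. FTL ranked 19 and 20 by CPM among all measured genes, and FTH1 58 and 83. Together these ferritin genes made up 0.495% and 0.433% of all counts and 87.9% and 86.2% of the summed CPM of the 10 members. TFRC followed with 44.5 and 57.5 CPM per kb, then HMOX1 with 38.6 and 41.5 and NCOA4 with 37.7 and 31.8. HMOX1 and NCOA4 were close in Ad-GFP and apart in Ad-Bmal1. ACO1 (17.1 and 15.0 CPM per kb), SLC11A2 (12.5 and 10.6) and STEAP3 (11.9 and 12.4) formed a middle group, in which SLC11A2 and STEAP3 changed places. The lowest pair was SLC40A1 at 0.774 and 0.484 and IREB2 at 0.675 and 0.810 CPM per kb, and it too changed places. With 1 library per group the spread behind these orders is unknown.

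TFRC, the receptor that brings in transferrin-bound iron, had the highest ratio of the 10, in favour of the library labelled Ad-Bmal1 (ENSG00000072274, chromosome 3, 196027183 to 196082189, minus strand). It had 4608 counts in Ad-GFP and 5819 in Ad-Bmal1, or 227 and 294 CPM. The ratio was 1.29 (1.24 to 1.34). Among the 1248 genes whose summed count lay within 2-fold of its own, 13.9% had a ratio at least as far from 1 in either direction. TFRC is the only member in which the searched hairpin pattern was found in the 3′ untranslated region.

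SLC11A2, the endosomal iron transporter, was lower (ENSG00000110911, chromosome 12, 50979401 to 51028566). It had 1101 and 910 counts, or 54.3 and 45.9 CPM in Ad-GFP and Ad-Bmal1, a ratio of 0.846 (0.774 to 0.924). Among the 3617 genes whose summed count lay within 2-fold of its own, 31.4% were at least as far from 1. The transcripts of SLC11A2 with and without an iron-responsive element cannot be told apart in counts per gene. STEAP3, the ferrireductase of the same endosome, had 1032 and 1051 counts and a ratio of 1.04 (0.955 to 1.14, ENSG00000115107, chromosome 2, 119223831 to 119265652). The 3 genes of the transferrin route therefore did not share a direction, with 1 interval above 1, 1 below and 1 that included 1.

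FTH1, the ferritin chain that oxidises iron for storage, had 33310 counts in Ad-GFP and 25480 in Ad-Bmal1, or 1643 and 1286 CPM (ENSG00000167996, chromosome 11, 61959718 to 61967660). The ratio was 0.783 (0.770 to 0.796), which is 1.28-fold lower (1.26 to 1.30). Among the 166 genes of like count (summed count within 2-fold), 10.2% had a ratio at least as far from 1 and 4.8% had a lower ratio. FTL, the chain that helps form the iron core, had 65790 and 61300 counts, or 3245 and 3094 CPM (ENSG00000087086, chromosome 19, 48965301 to 48966878). Its ratio of 0.953 (0.943 to 0.964) was nearer 1, and 75.5% of the 49 genes of like count were at least as far from 1. With a trend of the ratio on transcript length removed, FTL lay at 1.01, on the other side of 1, and FTH1 at 0.834 (0.820 to 0.848).

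The heavy chain was thus lower relative to the light chain, a quantity that does not depend on how the libraries are scaled. FTH1 had 0.506 counts for each FTL count in Ad-GFP and 0.416 in Ad-Bmal1. The ratio of these ratios was 0.821 (0.805 to 0.837). Per kb of transcript FTH1 stood at 0.362 times FTL in Ad-GFP and 0.297 times in Ad-Bmal1. The same comparison of TFRC with FTH1 gave 0.138 and 0.228 TFRC counts per FTH1 count. That ratio was 1.65 times as high in Ad-Bmal1 (1.58 to 1.72), and for TFRC against FTL it was 1.36 times as high (1.30 to 1.41). The ratios of TFRC to FTH1 and to FTL compare single genes and do not stand for uptake against storage. Among the other uptake members SLC11A2 had a ratio of 0.846 and STEAP3 one of 1.04. All these ratios of ratios show unequal differences and not which gene moved. Nor does the trend on transcript length cancel in them. With that trend removed, the ratios of the single genes were 1.24 for TFRC, 0.834 for FTH1 and 1.01 for FTL.

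Ferritin genes have many processed pseudogenes, intronless copies elsewhere in the genome, among which reads can be split. Of 25 annotated FTH1 pseudogenes 12 had a count, and together they held 449 counts in Ad-GFP and 500 in Ad-Bmal1. That is 1.35% and 1.96% of the FTH1 counts. FTH1P2 with 149 and 178 counts and FTH1P7 with 103 and 116 led them. Of 16 FTL pseudogenes 2 had a count, FTLP3 with 26 and 20 and FTLP6 with 1 and 0. Summed with its pseudogenes FTH1 had a ratio of 0.787 (0.775 to 0.800) and FTL one of 0.953 (0.943 to 0.964), and the ratio of the heavy to light ratios was 0.826 (0.810 to 0.842). How reads that fit several copies were counted is not given in the sources used here.

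NCOA4, the receptor that delivers ferritin for breakdown, was lower alongside FTH1 (ENSG00000266412, chromosome 10, 46005088 to 46030714). It had 2714 and 2233 counts, or 134 and 113 CPM, a ratio of 0.842 (0.796 to 0.891). Among 2340 genes of like count 27.6% were at least as far from 1. Relative to FTH1 its counts were 1.08 times as high in Ad-Bmal1 (1.01 to 1.14).

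SLC40A1, the iron exporter, had the lowest ratio of the 10 but few counts (ENSG00000138449, chromosome 2, 189560579 to 189583758). It had 54 counts in Ad-GFP and 33 in Ad-Bmal1, or 2.66 and 1.67 CPM. The ratio of 0.625 had an interval of 0.393 to 0.982, which reaches close to 1. Among 2708 genes of like count 18.7% had a ratio at least as far from 1, so a difference of this size was common at this depth. HMOX1, the inducible enzyme that opens the haem ring, had 1426 and 1499 counts, or 70.3 and 75.7 CPM (ENSG00000100292, chromosome 22, 35380361 to 35394214). Its ratio was 1.08 (0.9997 to 1.16), and 65.0% of 3213 genes of like count were at least as far from 1. With the length trend removed the interval lay above 1, at 1.06 to 1.23.

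The genes of the iron sensors differed in level more than between libraries. ACO1, which encodes IRP1, had 2584 and 2222 counts, or 127 and 112 CPM, a ratio of 0.880 (0.831 to 0.932, ENSG00000122729, chromosome 9, 32384603 to 32454769). Among 2403 genes of like count 39.8% were at least as far from 1. IREB2, which encodes IRP2, had 87 and 102 counts, or 4.29 and 5.15 CPM, a ratio of 1.20 (0.892 to 1.62, ENSG00000136381, chromosome 15, 78437431 to 78501456). ACO1 therefore stood 25.3 times as high as IREB2 per kb of transcript in Ad-GFP and 18.5 times in Ad-Bmal1. The change in that ratio was 0.734 (0.541 to 0.992). IRP2 is known to be controlled by protein breakdown, which counts of RNA do not show.

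Set beside the hairpins, the 3 members with a 5′ match (FTH1, FTL and SLC40A1) had ratios below 1 and the member with 3′ matches (TFRC) a ratio above 1. FTL did not keep that side, since removing the length trend put it at 1.01 (1.002 to 1.02). The SLC40A1 match was in 1 of its 5 coding transcripts, that of FTH1 in 7 of 8 and those of TFRC in 3 of 4. Of the 6 members without a match 3 had ratios below 1 (SLC11A2, NCOA4 and ACO1) and 3 above (STEAP3, HMOX1 and IREB2). No match means only that the strict pattern was not met. SLC11A2, at 0.846 (0.774 to 0.924), has transcripts with an iron-responsive element, as stated above, and is counted here as without one. The counts measure RNA, whereas the 5′ hairpin acts on translation, and no protein was measured here.

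**Figure D2:**
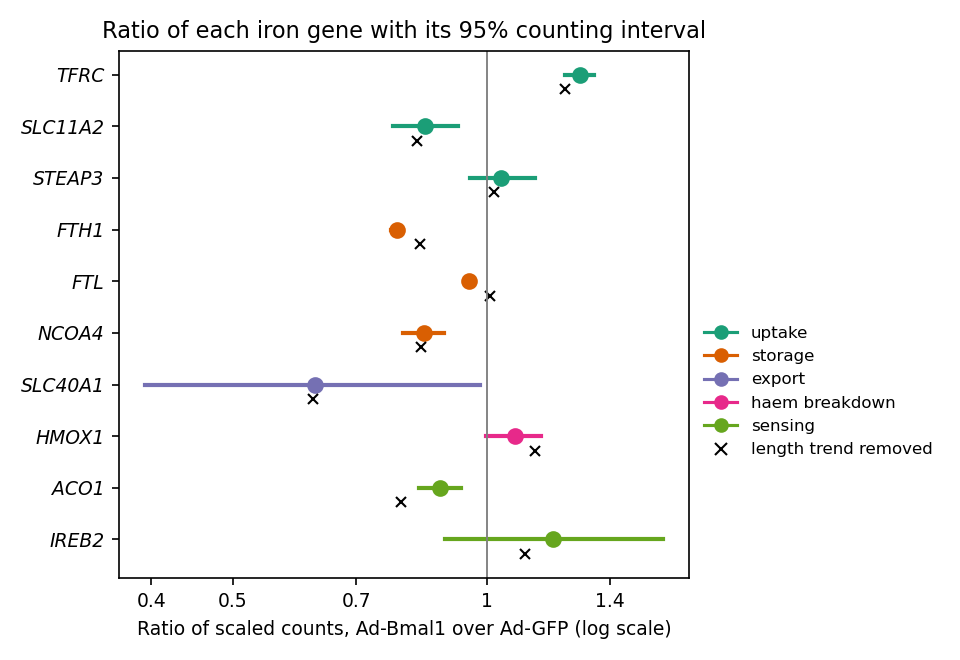
Ratio of scaled counts, Ad-Bmal1 over Ad-GFP, on a log axis for each iron gene, coloured by role, with bars for the 95% counting interval and a cross for the ratio with the length trend removed. TFRC at 1.29 lies to the right of 1, FTH1 at 0.783 to the left, and the wide bars of SLC40A1 and IREB2 reflect their low counts.

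Transcript length moved with the ratio across all genes. Over 5657 abundant genes (1000 or more counts) with a length, Spearman's rho between length and log2 ratio was 0.34, a description across genes that share both libraries. Genes of up to 1000 nt had a median log2 ratio of -0.06 and those over 6000 nt one of 0.20. The ferritin transcripts are short, with 1229 nt for FTH1 and 878 nt for FTL, and TFRC is 5111 nt long. Against that direction ACO1, at 7466 nt the longest of the 10, was lower, and its ratio was 0.792 (0.748 to 0.838) with the trend removed. TFRC then had 1.24 (1.19 to 1.29) and NCOA4 0.836 (0.790 to 0.884).

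**Figure D3:**
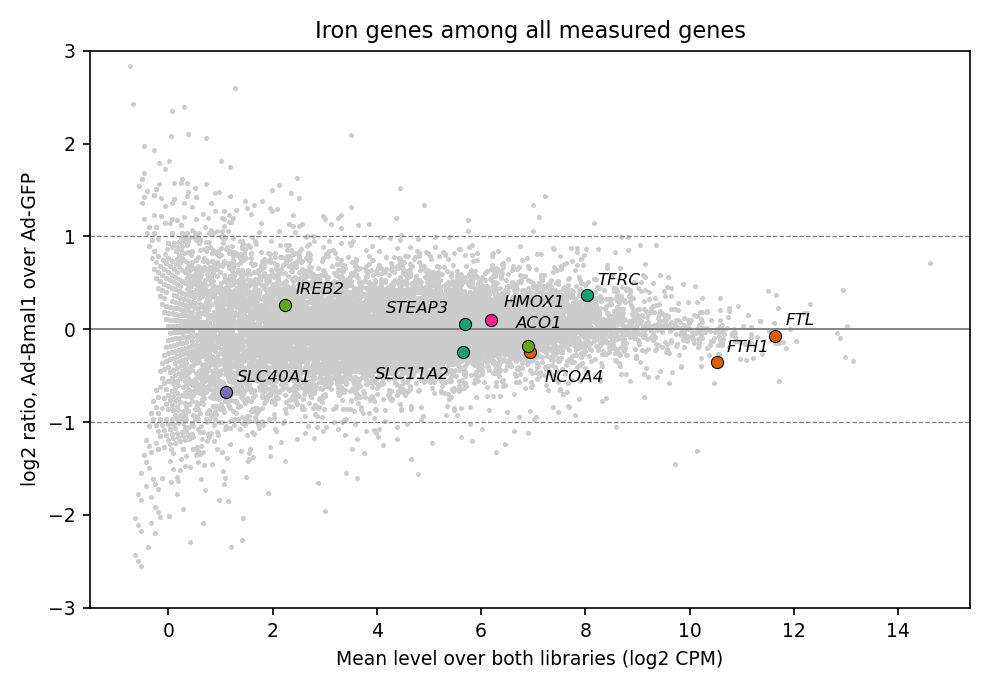
log2 ratio against mean log2 CPM for all measured genes (grey, 6 genes beyond a log2 ratio of 3 either way not shown) with the 10 iron genes coloured by role (uptake dark green, storage orange, export violet, haem breakdown pink, sensing light green); dashed lines mark 2-fold. All 10 lie between the dashed lines, and SLC40A1 at -0.68 is the farthest from 0.

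Other genes of iron and haem handling were placed in 8 lists of 87 genes, of which 71 were measured. Of these 19 had intervals above 1 and 21 below, 1 gene was higher by 2-fold or more and none lower, and the median log2 ratio was 0.03. Over all measured genes 23.8% had intervals above 1, 21.6% below and 2.86% passed 2-fold in either direction. Of the 71 genes 50 had 1000 or more counts, and over all genes that abundant 37.2% had intervals above 1 and 27.6% below. The counts of each list below are to be read against the same shares. The gene past 2-fold was HP (haptoglobin, which binds free haemoglobin), with 2 counts in Ad-GFP and 40 in Ad-Bmal1. HP was measured only through the library in which it was higher, and whether RNA of another cell type had a part in this was not tested. Of the 6 hepatocyte markers 2 were measured, and they went opposite ways. ALB was higher, as given above, while SERPINA1 had 5999 and 5011 counts, a ratio of 0.855 (0.823 to 0.888). Below the minimum, APOA1 (0 and 15 counts), TTR (0 and 9) and TF (1 and 14) were higher in Ad-Bmal1, each with an interval above 1. HAMP was at 0 in both libraries. The summed level of the 6 was 296 CPM in Ad-GFP and 263 in Ad-Bmal1, of which SERPINA1 alone held 296 and 253.

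Of 8 measured genes of uptake and reduction 5 had intervals below 1 and none above, with a median of -0.20. Of these 8 genes 5 had 1000 or more counts, and 27.6% of all genes that abundant had intervals below 1. LCN2, a secreted protein that binds iron-loaded siderophores and a known marker of tubular injury, had 4741 and 2865 counts (ratio 0.618, interval 0.590 to 0.648). SNX3, which recycles the transferrin receptor, stood at 0.787 (0.753 to 0.823), and the zinc and iron transporter SLC39A14 at 0.924 (0.886 to 0.963). MCOLN1, a lysosomal channel, had the highest ratio of the list at 1.04 (0.902 to 1.20). TF, the gene of transferrin itself, was not measured, with 1 and 14 counts.

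Storage chaperones and the genes that control export differed little. PCBP1 and PCBP2, which hand iron to ferritin, had ratios of 0.9967 (0.952 to 1.04) and 1.05 (1.001 to 1.11). Removing the length trend put PCBP1 at 1.06, with an interval above 1 (1.01 to 1.11). The storage list had 3 measured genes and a median of 0.03. In the export list, also with 3 measured genes and a median of 0.06, ERFE (erythroferrone, a hepcidin suppressor) had a ratio of 0.808 (0.739 to 0.882). NEO1, a co-receptor in hepcidin control, had a ratio of 1.20 (1.09 to 1.32). Removing the length trend put NEO1 at 1.08 (0.980 to 1.19), an interval that included 1. The ferroxidase HEPH was at 0 in both libraries, and its relative CP had 4 and 5 counts.

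Among 5 genes around the iron sensors the median was 0.16, with 3 intervals above 1 and 1 below. HERC2, a ubiquitin ligase that acts on NCOA4, had 1372 and 2268 counts (ratio 1.69, interval 1.58 to 1.81). Removing the length trend gave 1.42. HERC2 has near-identical pseudogene copies, so its counts are uncertain. EPAS1, a hypoxia factor whose transcript carries a known iron-responsive element, stood at 1.38 (1.32 to 1.44). FBXL5, the iron-sensing subunit that marks IRP2 for breakdown, was lower at 0.826 (0.749 to 0.910).

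In haem handling 12 of 14 genes were measured, 5 with intervals above 1 and 3 below, and the median was 0.04. LRP1, the receptor for haem bound to haemopexin, had 3708 and 6321 counts (ratio 1.74, interval 1.67 to 1.82). Removing the length trend gave 1.47. PGRMC1, a haem-binding membrane protein, had a ratio of 0.854 (0.799 to 0.913). In haem synthesis 3 of 8 measured genes had intervals above 1 and 3 below, with a median of 0.08. PPOX, the step before iron is inserted, had the lowest ratio at 0.665 (0.569 to 0.777). The abundant UROD and CPOX had ratios of 0.925 (0.882 to 0.970) and 0.9911 (0.921 to 1.07). Removing the length trend put UROD at 0.986 (0.941 to 1.03), an interval that included 1.

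Of 22 measured genes of mitochondrial iron and iron-sulfur clusters, 14 had intervals that included 1, 3 lay above and 5 below, with a median of -0.03. SLC25A37 (mitoferrin 1), which brings iron into mitochondria, had 2449 and 1618 counts (ratio 0.676, interval 0.634 to 0.720). The chaperone HSPA9 was the most abundant of the list and had its highest ratio, 1.15 (1.10 to 1.20).

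Of 10 genes that place clusters in cytosolic and nuclear proteins, 3 had intervals above 1 and 3 below, with a median of 0.01. CIAO2B, a subunit of the targeting complex, had 1700 and 1080 counts (ratio 0.650, interval 0.602 to 0.702). CIAPIN1, which passes electrons to the assembly machinery, had the highest ratio at 1.18 (1.09 to 1.28). GLRX3, a cytosolic glutaredoxin, stood at 1.10 (1.05 to 1.15) and MMS19, another subunit of the targeting complex, at 1.02 (0.971 to 1.07).

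**Figure D4:**
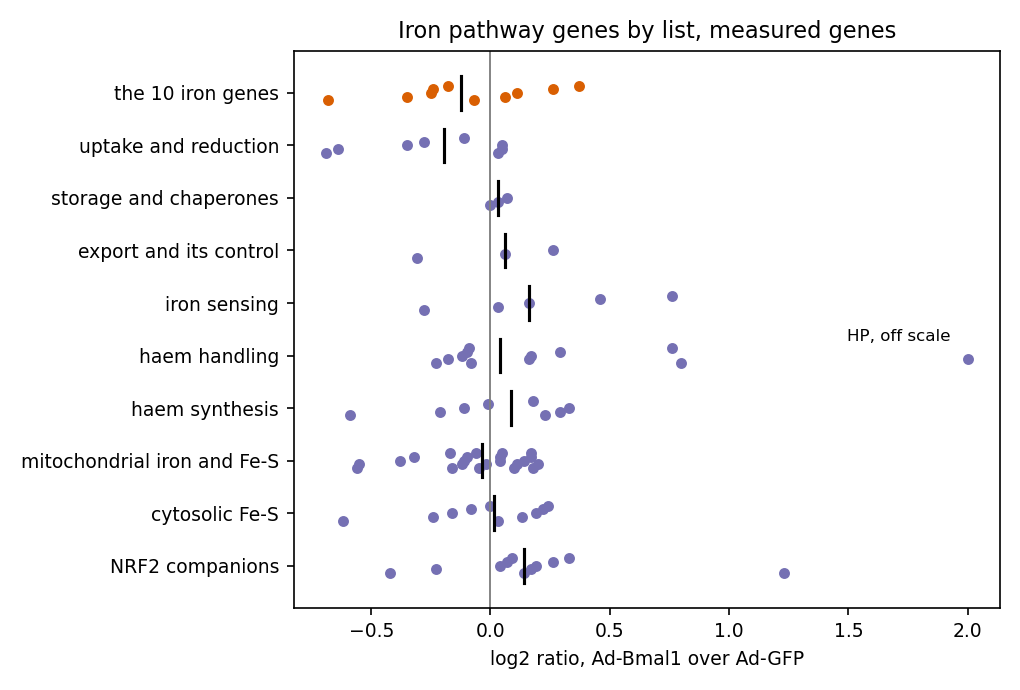
log2 ratio, Ad-Bmal1 over Ad-GFP, of each measured gene by list (points) with the list median (black bar); the 10 members are in orange and HP lies off scale. The medians of the other iron lists run from -0.20 for uptake and reduction to 0.16 for iron sensing, beside -0.13 for the members.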

How the data were processed

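Each library has 1 deposited file of raw counts per gene, and the whole numbers show no normalisation by the authors. Libraries were made from polyadenylated RNA and sequenced as 150 bp pairs, per the labels' protocols, and the submitters' processing notes name HISAT2 and GRCh38 (hg38). How genes were counted, and with which strand setting, is not given in the sources used here. Groups were taken from the sample titles.

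Counts were scaled with TMM (edgeR 4.0.16, R 4.3.3), with factors of 1.012 (Ad-GFP) and 0.988 (Ad-Bmal1). A single library per group leaves no degrees of freedom, so no test was fitted. Ratios have exact 95% conditional binomial (Clopper-Pearson) intervals, and ratios of ratios exact conditional intervals from the 2 by 2 counts. Reads here carry no molecular identifiers, so the intervals may be too narrow even for counting error. Where a library had no count the floor was 3 counts. Symbols, coordinates and lengths (longest coding transcript) are those of GENCODE v29 (GRCh38), where 99.5% of the gene rows were found. The length trend was a lowess fit (statsmodels 0.14.6, span 30%). Python 3.11.15, scipy 1.17.1 and pandas 2.3.3 were used, and the steps were tested on simulated counts.

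The members and lists were chosen with earlier results of these data known. Named genes are all members and, of each list, any past 2-fold, the 2 with the most counts and those with the highest and lowest ratio; the values of some genes so named are not reported here. Of the pseudogenes the rule names the 2 with the most counts of each parent. HEPH, CP and TF were named after their values were seen, as were genes of the marker lists. Protein identity was not analysed here. Alternatives were size factors from DESeq2 1.42.0, total counts, upper-quartile scaling, totals that leave out mitochondrial genes and the top 20 by count, a prior count, other minimums and folds, the length trend and sums with pseudogenes.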

Additional observations from a re-analysis of the deposited data

How the results depend on the processing

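The ratios of the 10 members were recomputed under 62 combinations of gene and alternative. In 54 the value stayed within the gene's main counting interval, in 7 it left that interval on the same side of 1, and in 1 it crossed 1. That was FTL, at 1.01 (1.002 to 1.02) with the length trend removed. The number of members at or past the size threshold was 1 instead of 0 at 1.5-fold. The number with intervals above 1 was 3 instead of 1 with the length trend removed, as FTL and HMOX1 joined TFRC. Among the other iron genes 8 of the 71 measured passed at 1.5-fold, against 1 in the main setting. Of all measured genes 9.30% passed at 1.5-fold and 2.86% at 2-fold. At 2-fold 3 of the other iron genes passed without a minimum and 0 with a minimum of 10 CPM. The shares of all genes under those minimums, and with the length trend removed, are not given here, so these counts describe the settings only. No scaling moved the median of all genes by more than 0.034 on the log2 scale. Leaving out a replicate was not possible with 1 library per group, and no paired analysis was possible because each group has 1 library. Depth limited SLC40A1 and IREB2, whose intervals span a wide range.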

Other observations

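HMOX1, FTH1, FTL and SLC40A1 are also known targets of NRF2, the transcription factor of the oxidative stress response, and genes of that response were given a list of their own. Of 11 measured genes 5 had intervals above 1 and 2 below, with a median log2 ratio of 0.14. Over all measured genes 23.8% had intervals above 1 and 21.6% below, and over genes with 1000 or more counts 37.2% and 27.6%. TXNRD1, a thioredoxin reductase and the most abundant of the list, had 13371 counts in Ad-GFP and 9762 in Ad-Bmal1, and its ratio of 0.747 (0.728 to 0.767) was the lowest of the list. SLC7A11, the cystine transporter, had 27 counts in Ad-GFP and 62 in Ad-Bmal1 (ratio 2.35, interval 1.47 to 3.84) and was the 1 gene of the list past 2-fold. Removing the length trend put SLC7A11 at 2.05 (1.28 to 3.35). TXNRD1 and FTH1 thus had ratios below 1. Of the 11 measured genes of the list 9, SLC7A11 among them, had ratios above 1, and 2, TXNRD1 among them, below.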
